A study of Rattus norvegicus with 2 samples.

Results

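Cadherins and protocadherins are transmembrane proteins that hold neighbouring cells together. In fetal rat skin they were followed here through 51 genes of 18346 named genes on the array. A gene was included when its array name was that of a numbered cadherin or protocadherin, or of a member of the alpha, beta or gamma protocadherin clusters. Cdh5 and Cdh19 were left out by that rule, and each gene was read from its brightest probe. The RNA came from the skin of Sprague Dawley rat fetuses with no treatment. The E16 pool combined 4 samples of embryonic day 16.5, and the E19 pool combined 3 samples of embryonic day 18.5, although the label reads E19. Both pools were hybridised together to 2 arrays, with E19 in Cy5 on the first and in Cy3 on the second. The arrays repeat the same 2 RNA pools, so each stage is 1 replicate, no difference between stages has a replicate check, and no p-value is given.

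Classical cadherins bind the same kind of cadherin on the next cell through calcium-dependent extracellular repeats, and their tails bind catenins that connect to actin. E-cadherin and P-cadherin join keratinocytes in the epidermis, whereas N-cadherin and the type II cadherins are better known from mesenchyme, nerve and muscle. Protocadherins share the repeats but not the catenin-binding tail. Delta protocadherins are known for roles in the nervous system and in tissue patterning, and the clustered protocadherins give single neurons distinct surface identities.

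The cadherins of the skin pools were divided in direction. N-cadherin (Cdh2), M-cadherin (Cdh15), the type II genes Cdh10, Cdh6 and Cdh22, the delta protocadherins Pcdh9, Pcdh17 and Pcdh8 and the clustered Pcdhac2 were each between 2.30-fold and 3.62-fold higher in E16 on average. The Cdh22 value is uncertain, because its probes disagreed in size and the array files place them on a chromosome other than that of the gene. Pcdh1 was the only gene past the same limit in the other direction, at 2.30-fold higher in E19. E-cadherin (Cdh1) was 1.73-fold and P-cadherin (Cdh3) 1.32-fold higher in E19, both short of the limit. The pools were RNA of bulk skin, in which fewer cells of a type and less RNA per cell cannot be told apart. The limit was a ratio of at least 2-fold in the same direction on both arrays, which is a log2 ratio beyond 1.

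Of the 51 genes, 46 were detected, meaning that their probe was well above background for at least 1 pool on both arrays, and 43 were measured in both pools. Cdh9, Cdh26, Pcdha2, Pcdhb1 and Pcdhga11 were not detected. No probe of these genes was saturated. Among the detected genes, 9 (19.6%) passed the limit towards E16, where 3.75% of all 14790 detected genes did. Only Pcdh1 (2.17%) passed it towards E19, where 4.14% of all detected genes did. The median log2 ratio of E19 over E16 was -0.33 for the 46 genes, with medians of -0.27 and -0.36 on the single arrays, beside 0.02 for all detected genes. Of the 46 ratios, 38 were below 0, and 31 were below 0 on both arrays. Across all detected genes 47.5% of ratios were below 0. Among the 46, Cdh8, Pcdh11x and Pcdhb11 were well above background on both arrays only in E16, which favours a ratio below 0. With both pools required the median of the family was -0.32.

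**Figure D1:**
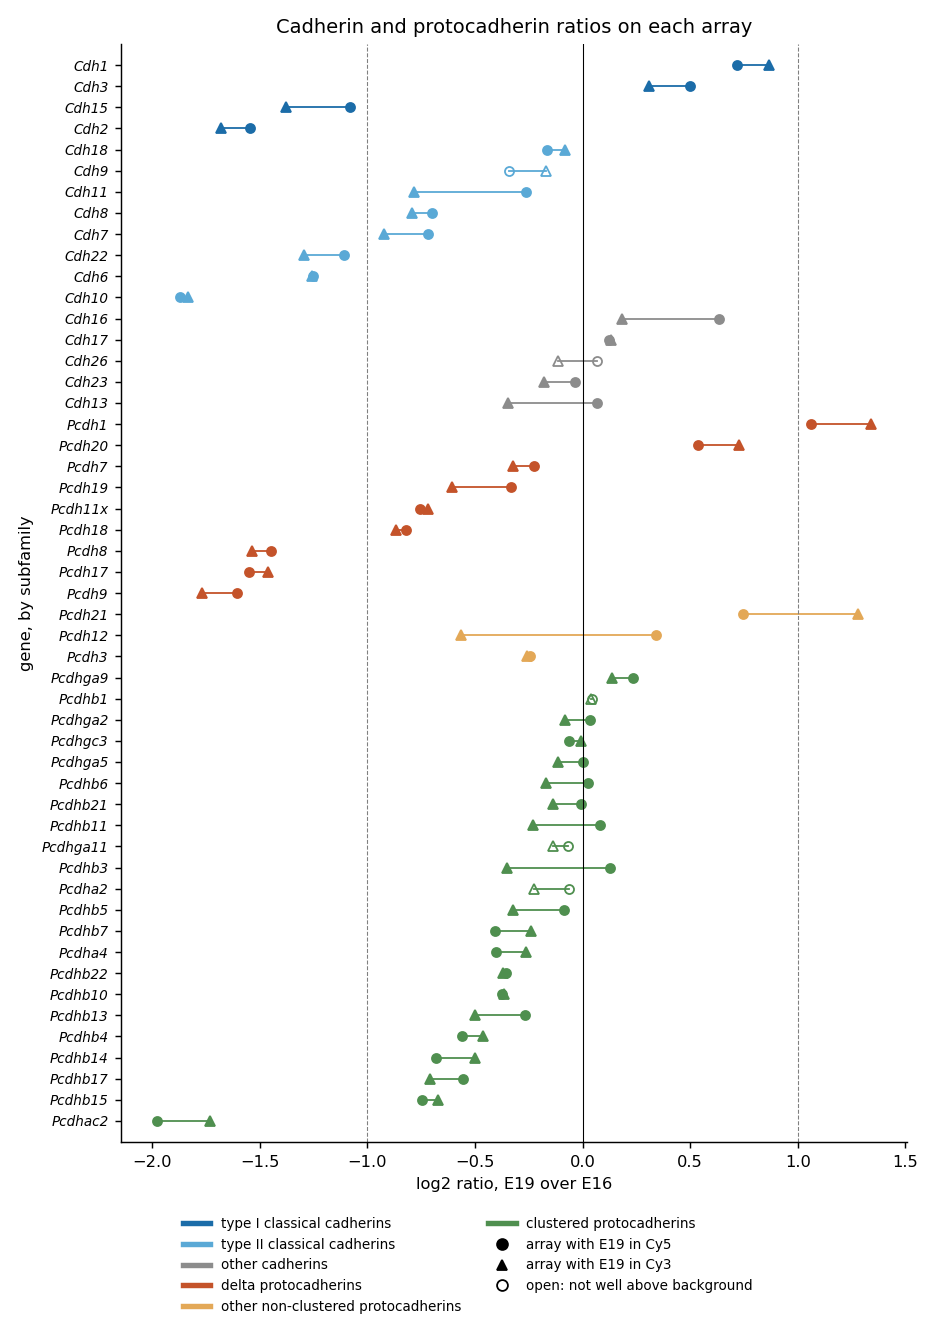
Log2 ratio of E19 over E16 for each of the 51 genes, ordered by subfamily, with 1 symbol per array (circle: E19 in Cy5, triangle: E19 in Cy3) and dashed lines at 2-fold. Type II cadherins lie wholly to the left of 0, delta protocadherins run from -1.69 (Pcdh9) to 1.20 (Pcdh1), and the beta and gamma cluster genes stay within the dashed lines.

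The probe sequences were not used here. Sequences of promoters were taken from RefSeq's GRCr8 assembly, 250 bases before to 50 bases after the gene start, for the 34 of these genes that the table held under the same symbol. Cdh6 and Cdh10 are shown because they are type II genes, both on chromosome 2, that were both past the limit towards E16 and whose promoters share a run of 13 letters, in capitals. The Cdh6 promoter is chr2:63952238-63952537 on the minus strand, and that of Cdh10 is chr2:70355439-70355738 on the plus strand.
Cdh6: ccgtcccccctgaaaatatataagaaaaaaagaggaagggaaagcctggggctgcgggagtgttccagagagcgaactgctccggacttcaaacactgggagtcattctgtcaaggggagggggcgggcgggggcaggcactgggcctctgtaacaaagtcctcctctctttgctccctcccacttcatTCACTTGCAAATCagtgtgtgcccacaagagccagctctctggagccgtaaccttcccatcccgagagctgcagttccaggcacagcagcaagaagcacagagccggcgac
Cdh10: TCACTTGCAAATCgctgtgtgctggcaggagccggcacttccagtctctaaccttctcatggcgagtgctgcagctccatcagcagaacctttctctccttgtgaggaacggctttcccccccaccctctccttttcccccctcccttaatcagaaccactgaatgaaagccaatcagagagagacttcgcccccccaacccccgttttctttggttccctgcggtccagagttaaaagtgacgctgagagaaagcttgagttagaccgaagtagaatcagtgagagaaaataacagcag
The shared run, TCACTTGCAAATC, was found on either strand in 2 of all 33469 promoters of the table, those of Cdh6 and Cdh10. Other pairs of these genes shared runs as long or longer, such as 14 letters between Cdh6 and Pcdh1, a run found in 25 promoters. The stretch was picked after the ratios were known, and a match of letters is a description and not a binding site.

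The Cdh15 promoter, chr19:67814407-67814706 on the plus strand, is shown for its E-boxes. E-boxes are the short motif CANNTG, and they are in capitals. The myogenic factors of the Myod1 family are among the factors that bind E-boxes.
Cdh15: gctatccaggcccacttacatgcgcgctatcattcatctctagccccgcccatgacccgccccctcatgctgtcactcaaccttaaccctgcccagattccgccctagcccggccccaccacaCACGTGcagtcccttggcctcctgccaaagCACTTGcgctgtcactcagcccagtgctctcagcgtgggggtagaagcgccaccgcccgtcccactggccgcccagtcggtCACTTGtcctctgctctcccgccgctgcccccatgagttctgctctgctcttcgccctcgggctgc
This promoter holds 3 E-boxes, and whether any factor binds them was not tested. At least 1 E-box was found in 72.1% of all promoters of the table, so its presence alone sets no gene apart.

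All 4 type I classical cadherins on the array were detected, with 2 below 0 and 2 above 0 on both arrays. Their levels are given as normalised log2 intensities, which can be compared between pools for 1 probe but not between probes. Cdh2 encodes N-cadherin, the main classical cadherin of neural and mesenchymal cells. Its level was 11.48 in E16 and 9.93 in E19 on the first array, whose E19 dye was Cy5, and 11.55 and 9.87 on the second. The E16 pool was therefore above the E19 pool in both dye orientations, and no level of 1 pool reached into the range of the other. The log2 ratio was -1.61 ± 0.10 (SD of 2 arrays, technical), a 3.06-fold higher signal in E16. Cdh15 encodes M-cadherin, a cadherin of myoblasts and muscle satellite cells. It had levels of 10.98 in E16 and 9.90 in E19 on the first array and of 10.92 and 9.54 on the second. Its log2 ratio of -1.23 ± 0.21 was past the limit on both arrays, at -1.08 on the one that came closer to it. With median centring in place of loess it read -0.75 and -1.76, which ended the call.

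Cdh1 encodes E-cadherin, the adherens junction cadherin of all living epidermal layers. Its level was 14.72 in E16 and 15.44 in E19 on the first array, and 14.63 and 15.49 on the second. E19 was the higher pool on both arrays, and the log2 ratio was 0.79 ± 0.10. Cdh3, P-cadherin of basal keratinocytes and hair germs, had levels of 9.53 in E16 and 10.02 in E19 on the first array and of 9.73 and 10.03 on the second. The E19 levels of Cdh3 were again above both E16 levels, with a log2 ratio of 0.40 ± 0.14. The ratio within each array thus ran in opposite directions for N-cadherin on one side and E- and P-cadherin on the other. Their mean ratios did so under every other setting tried, the centring on spike-in RNAs included.

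The type II classical cadherins, which bind among themselves and are known from neurons, mesenchyme and developing kidney and bone, were lower in E19 without exception among those detected. All 7 detected genes of 8 had a ratio below 0 on both arrays, with a median of -0.82, and 3 (42.9%) passed the limit. Cdh10, a type II cadherin known mainly from brain, had levels of 10.31 in E16 and 8.44 in E19 on the first array and of 10.26 and 8.43 on the second. Its log2 ratio was -1.85 ± 0.03, or 3.61-fold. Both other detected Cdh10 probes were also below 0, at -1.01 ± 0.13 and -0.91 ± 0.30, and neither was past the limit on both arrays. Cdh6, K-cadherin, had levels of 9.83 in E16 and 8.57 in E19 on the first array and of 9.86 and 8.60 on the second. Its log2 ratios of -1.25 and -1.26 were the closest pair among the genes past the limit. The close agreement of the arrays for both genes depended on the loess step. With median centring in its place Cdh10 read -1.59 and -2.12, still past the limit, and Cdh6 read -0.98 and -1.53, short of it on the first array.

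Of the 3 detected genes not measured in both pools on both arrays, Pcdh11x and Pcdhb11 were well above background in E19 on 1 array and Cdh8 on neither. Cdh8 was well above background in E16 on both arrays, with mean levels of 7.19 in E16 and 6.44 in E19, which put E16 at least 1.67-fold above E19. Cdh7, a cadherin of migrating neural crest, had a log2 ratio of -0.82 ± 0.14. Cdh11, OB-cadherin of fibroblasts and bone-forming cells, had levels of 11.29 in E16 and 11.03 in E19 on the first array and of 11.63 and 10.85 on the second. Its 4 probes gave mean ratios between -0.65 and -0.46, all below 0 on both arrays, and the brightest gave -0.52 ± 0.37. The brightest probe of Cdh11 differed more between the arrays than its dimmest, which read -0.69 and -0.62. The smallest difference in the subfamily was that of Cdh18, at -0.12 ± 0.06.

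Cdh22 needs separate mention. Its brightest probe had levels of 15.23 in E16 and 14.12 in E19 on the first array and of 14.95 and 13.65 on the second, for a log2 ratio of -1.20 ± 0.13. Its other probe, also detected, gave only -0.15 ± 0.06, and the authors' deposited table gives a log2 ratio of -0.60 for the gene. The array files place both probes on chromosome 6, between the probes of the imprinted genes Dlk1 and Rtl1, while RefSeq has Cdh22 on chromosome 3. It was the only one of the 51 genes with such a mismatch. Of the 8 other probes that the files place between Dlk1 and Rtl1, all were detected and 6 passed the limit towards E16, with a median of -1.18 (from -1.60 to -0.92). Which transcript the bright probe reads was not tested. Without Cdh22, 8 of 45 genes (17.8%) passed the limit towards E16, and the median of the family was -0.32.

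The cadherins outside the classical types showed small differences. Cdh13, T-cadherin, is held to the membrane by a lipid anchor and has no cytoplasmic tail. It had levels of 12.44 in E16 and 12.51 in E19 on the first array and of 12.58 and 12.23 on the second, so the pools changed order between the arrays, and the mean ratio was -0.14 ± 0.29. Its second probe gave -0.30 on both arrays. Among the 4 detected genes of this group the ratios ran from that of Cdh13 to 0.41 ± 0.32 for Cdh16, a cadherin known from kidney. None passed the limit.

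**Figure D2:**
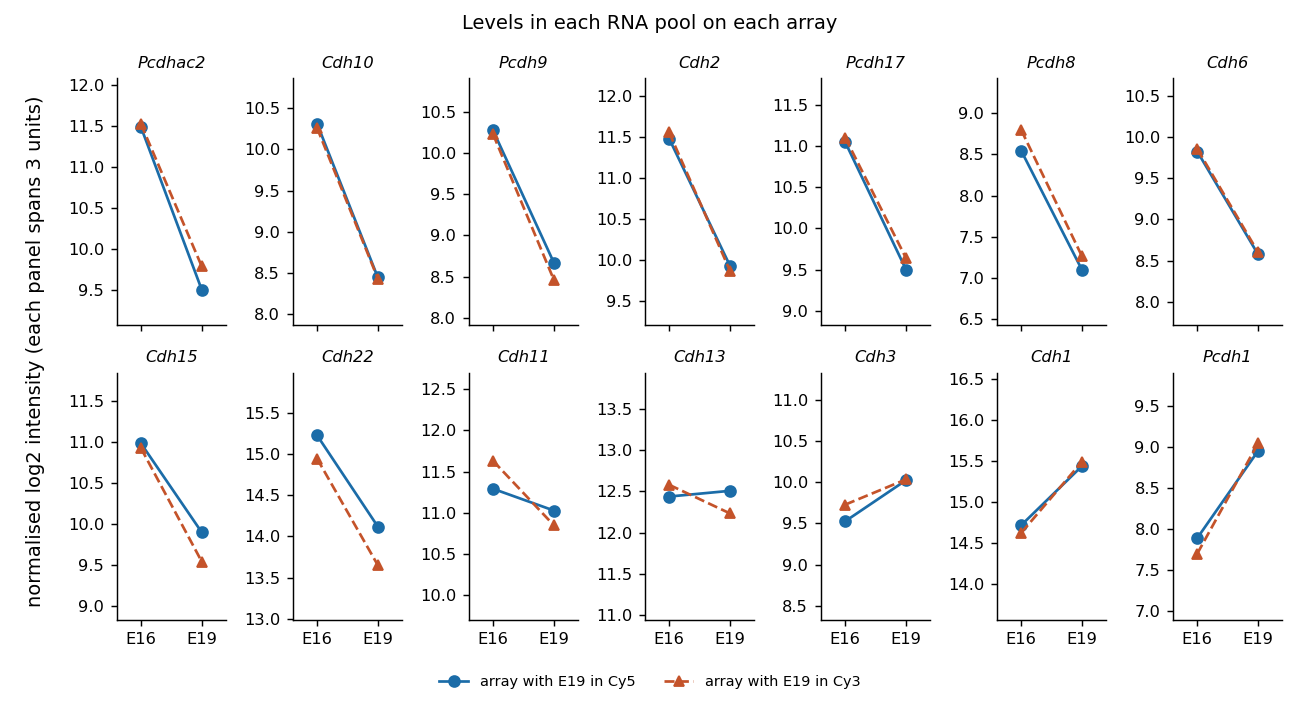
Normalised log2 intensity of 14 genes in the E16 and E19 pools, with a line for each array and panels that each span 3 log2 units, ordered by ratio. The 9 genes from Pcdhac2 to Cdh22 slope down on both arrays, Cdh3, Cdh1 and Pcdh1 slope up, and Cdh13 slopes in opposite directions on the 2 arrays.

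The delta protocadherins, adhesion and signalling proteins of the nervous system and the embryo, held the widest spread of the non-clustered genes. All 9 were detected, 7 were below 0 and 2 above 0 on both arrays, and the median was -0.74. That median was the ratio of Pcdh11x, which was well above background in E19 on only 1 array. With both pools required the delta median was -0.66. Pcdh9 had levels of 10.28 in E16 and 8.67 in E19 on the first array and of 10.23 and 8.46 on the second, for a ratio of -1.69 ± 0.11. A second Pcdh9 probe was past the limit as well, at -2.36 ± 0.14, and the other 2 gave -0.96 and -0.43. Pcdh17 had levels of 11.05 in E16 and 9.50 in E19 on the first array and of 11.10 and 9.64 on the second, for a ratio of -1.51 ± 0.06, while its dimmer probe gave -0.46 ± 0.01. The brightest probe thus gave a larger difference than most of the dimmer probes of the same gene.

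Pcdh8, known as arcadlin in neurons and as paraxial protocadherin in the embryo, had levels of 8.54 in E16 and 7.09 in E19 on the first array and of 8.80 and 7.26 on the second. Its ratio was -1.49 ± 0.06. Pcdh18 was at -0.84 ± 0.03, with levels of 11.11 and 11.18 in E16 and of 10.29 and 10.31 in E19. The levels of Pcdh18 within a pool differed by far less than the pools did, and it stayed short of 2-fold. Pcdh11x had levels of 7.65 and 7.54 in E16 and of 6.90 and 6.82 in E19, where it was well above background on 1 of the 2 arrays, and a ratio of -0.74 ± 0.02. Pcdh19, a gene linked to epilepsy in humans, had levels of 12.20 and 12.19 in E16 and of 11.86 and 11.58 in E19, and a ratio of -0.47 ± 0.20. Pcdh7 had levels of 10.30 and 10.77 in E16 and of 10.08 and 10.45 in E19. Its ratio was -0.27 ± 0.07 although its levels overlapped between the pools across arrays.

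Pcdh1 and Pcdh20 were the delta protocadherins with more signal in E19. Pcdh1, which is expressed in epithelia including that of the airways, had levels of 7.89 in E16 and 8.95 in E19 on the first array and of 7.70 and 9.04 on the second. The ratio was 1.20 ± 0.20, past the limit on both arrays, at 1.06 on the one that came closer to it. Pcdh20 had levels of 7.29 and 7.10 in E16 and 7.82 on both arrays in E19, and a ratio of 0.63 ± 0.13. In this subfamily, then, 3 of 9 genes passed the limit towards E16 and 1 towards E19.

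The remaining non-clustered names were Pcdh21, Pcdh12 and Pcdh3. Pcdh21, now named Cdhr1 and known from photoreceptors, was the highest of them at 1.01 ± 0.38, but its ratios of 0.75 and 1.28 left it short of the limit on the array with E19 in Cy5. Pcdh12, a protocadherin of endothelium, read 0.34 on the first array and -0.56 on the second. The accession of Pcdh3 belongs to a beta cluster gene in RefSeq, and it was the lowest of the 3 at -0.25 ± 0.01.

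Clustered protocadherins are made from tandem arrays of variable exons, each with its own promoter, and the alpha and gamma genes add constant exons shared across their cluster. Of 22 such genes on the array 19 were detected, 18 of them below 0, with a median of -0.32. Pcdhac2 of the alpha cluster was the only one past the limit. It had levels of 11.48 in E16 and 9.51 in E19 on the first array and of 11.52 and 9.79 on the second, for a ratio of -1.85 ± 0.17, and its other probe gave -1.99 ± 0.17. Both probes are annotated to 4 transcripts, whereas the probes of Pcdha4 and Pcdha2 are annotated to 1 each. Pcdha4 read -0.33 ± 0.10, and Pcdha2 was not detected. Whether the Pcdhac2 probes read that gene alone or sequence shared by the cluster was not tested.

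The beta cluster, whose genes are single exons with nothing shared, had 13 detected genes of 14, every one with a mean ratio below 0. The median was -0.36, and the ratios ran from -0.71 ± 0.05 for Pcdhb15 to -0.07 for Pcdhb6 and Pcdhb21. On both arrays 10 of the 13 were below 0. None was 2-fold, so the beta genes had the same sign but small ratios. The 4 detected gamma genes had a median of -0.03, with Pcdhga9 highest at 0.19 ± 0.07 and Pcdhga5 lowest at -0.06 ± 0.08. Probes of near-identical cluster genes can bind each other's transcripts, so the ratios of single beta and gamma genes are uncertain. The run GTGGCGCTG was found on either strand in 15 of 19 beta promoters of the RefSeq table, in 0 of 15 gamma promoters and in 0.517% of all promoters. It was picked after the sequences were seen. Leaving out the genes named as clustered, with Pcdh3 kept in, 8 of 27 genes (29.6%) passed the limit towards E16 and the median was -0.47.

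**Figure D3:**
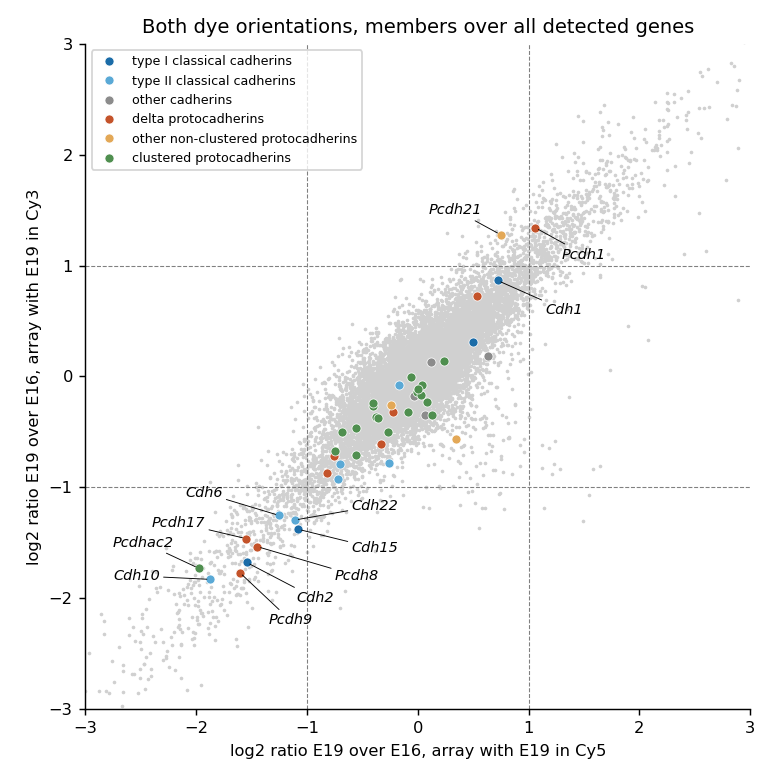
Log2 ratio of E19 over E16 on the array with E19 in Cy5 (horizontal) and with E19 in Cy3 (vertical) for all detected genes (grey) and the detected cadherin and protocadherin genes (coloured by subfamily), with genes beyond 3 log2 units not drawn. The 9 genes past 2-fold towards E16 lie in the lower left square, Pcdh1 lies in the upper right square, and Pcdh21 lies above the horizontal line but left of the vertical one.

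Cadherins work through cytoplasmic partners. Of 12 detected genes of catenins and the junction plaque, 1 passed the limit towards E19 and 1 towards E16, with a median of -0.18. Jup, plakoglobin of adherens junctions and desmosomes, had a ratio of 1.37 ± 0.11, with levels of 13.96 and 14.20 in E16 and of 15.25 and 15.65 in E19. Ctnna2, the neural alpha-catenin, had a ratio of -1.08 ± 0.02 and was well above background in E19 on 1 of 2 arrays. The catenins that most cells carry differed little: Ctnnb1 (beta-catenin) read -0.11 ± 0.33, Ctnna1 (alpha-E-catenin) 0.31 ± 0.00 and Ctnnd1 (p120-catenin) 0.18 ± 0.16.

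Among 8 detected nectin and afadin genes, whose proteins start adherens junctions before cadherins gather there, the median was 0.01 and only Nectin4 passed the limit, at 1.27 ± 0.01 towards E19. The giant and seven-pass relatives of the cadherins, including the Fat, Dachsous and Celsr proteins of planar polarity and the synaptic calsyntenins, had a median of -0.72 over 15 detected genes. That median was the ratio of Clstn3, which was well above background only in E16. With both pools required the median of the giant relatives was -0.51. Towards E16 3 of them passed the limit, the calsyntenin Clstn2 at -1.78 ± 0.12, Celsr3 at -1.65 ± 0.08 and Fat3 at -1.59 ± 0.08. None passed it towards E19. Cdhr1 of this list is the same probe as Pcdh21 above. Of 9 detected genes known as repressors of E-cadherin transcription, none passed the limit, and the median was -0.07. Snai2 (Slug) changed sign between the arrays, at 0.18 and -0.32. Of 12 detected genes that cleave, remove or dephosphorylate cadherins, none passed the limit, and the median was 0.33.

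Markers of several cell types were set beside the cadherins. Of 12 neuronal markers, 9 passed the limit towards E16 and none towards E19, with a median of -3.01, and 11 were below 0. Map2 went the other way, at 0.83 ± 0.18. Their summed linear level was 47622 and 48396 in E16 on the 2 arrays, against 7509 and 6631 in E19. The summed level was higher in E16. The 9 cadherin and protocadherin genes past the limit towards E16, and Clstn2, Celsr3, Fat3 and Ctnna2, were picked by that direction. That they share it with the neuronal markers therefore follows from the choice. Of 8 Schwann cell and glial markers only Fabp7 passed the limit, towards E16, and the median was -0.40. Of 8 cartilage markers 6 passed it towards E16, with a median of -1.87 and summed levels of 47770 and 46356 in E16 against 14089 and 12708 in E19. The part of these cells in the cadherin ratios was not tested.

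Cdh15 was set beside skeletal muscle in the same way. The myogenic regulators Myod1, Myog and Myf5 were at -2.48, -1.61 and -1.65, all past the limit towards E16, and the fourth, Myf6, was at 0.24 ± 0.01. Myh8, a myosin of perinatal muscle, was at 1.80. Over 10 muscle markers the median was -0.53, with summed levels of 372565 and 369443 in E16 and of 265066 and 179135 in E19. M-cadherin and 3 of the 4 regulators were thus higher in E16, while 5 of the 10 markers were above 0. The part of muscle content in the Cdh15 ratio was not tested.

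The labelled tissue was checked with keratinocyte markers. Of 9 listed, 8 were on the array under these names, all were detected and above 0, and 4 passed the limit towards E19, with a median of 1.71. Their summed level was 263931 and 714060 in E16 and 1196440 and 1272630 in E19, so the arrays differed most for E16. Pcdh1, Jup and Nectin4 were picked for passing the limit towards E19, so they share the direction of these markers by choice. Of the type I cadherins, Cdh1 and Cdh3 were also higher in E19, and Cdh2 and Cdh15 were lower. The part of keratinocyte content in these ratios was not tested. The ratio of Cdh1 was 0.72 and 0.87 on the 2 arrays, below the keratinocyte marker medians of 1.81 and 1.12. Krt5, Krt10, Tp63, Dsc3 and Perp were above Cdh1 on both arrays. On the second array Krt14, Krt1 and Krt15 read 0.74, 0.69 and -0.10, which was below Cdh1. On the first array Krt14 and Krt1 were well above Cdh1, and Krt15 was about level with it. The place of these keratins relative to Cdh1 therefore rests on single arrays that differ. Dermal fibroblast markers had a median of 0.62 (0.97 and 0.28 on the 2 arrays), with 1 of 8 past the limit, Dcn, towards E19. Their summed level was 324262 and 500854 in E16 and 722296 and 616253 in E19. Of these 8 markers 7 were above 0, unlike Cdh11, and only Pdgfra was below 0, at -0.31 ± 0.12. The part of fibroblast content in the Cdh11 ratio was not tested. Endothelial markers had a median of 0.47 with none of 8 past the limit. Of 6 detected melanocyte markers 2 passed it towards E19 with a median of 0.91, and Dct was not detected. Of 6 fat cell markers 5 passed it towards E19 with a median of 2.87.

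**Figure D4:**
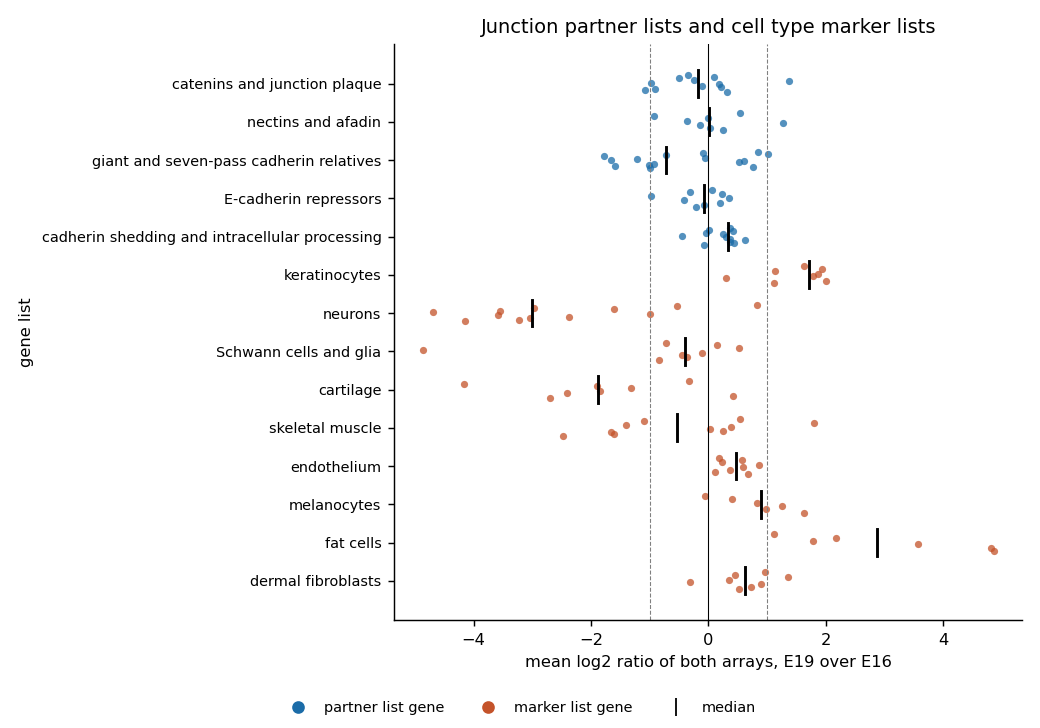
Mean log2 ratio of E19 over E16 for each detected gene (point) of the junction partner lists (blue) and the cell type marker lists (orange), with the list median as a black bar and dashed lines at 2-fold. Neuronal and cartilage markers lie mostly left of -1, keratinocyte and fat cell markers mostly right of 1, and the genes of each partner list lie mostly between the lines.

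The size of several ratios depended on how background and probes were handled, while no gene past the limit changed direction under any setting. Median centring in place of loess left 6 genes past the limit towards E16, without Cdh6, Cdh15 and Cdh22, whose means moved little while their arrays spread apart. Averaging all detected probes left 7 genes past the limit towards E16, without Cdh22 and Pcdh17, and moved Cdh10 to -1.26. The scanner software's processed signals gave 12 genes towards E16 and 2 towards E19, adding Cdh7, Cdh8, Pcdh11x and Pcdh20. There Pcdh8 read -2.39, Cdh8 -2.85 and Pcdh11x -1.69. On the scale used, 10 spike-in RNAs read 0.22 ± 0.04 (SD over spike-ins), and centring on them took Pcdh1 below the limit and brought Pcdh18 past it. Cdh2, Cdh10, Pcdh8, Pcdh9 and Pcdhac2 passed the 2-fold limit under every setting that kept that limit.

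**Figure D5:**
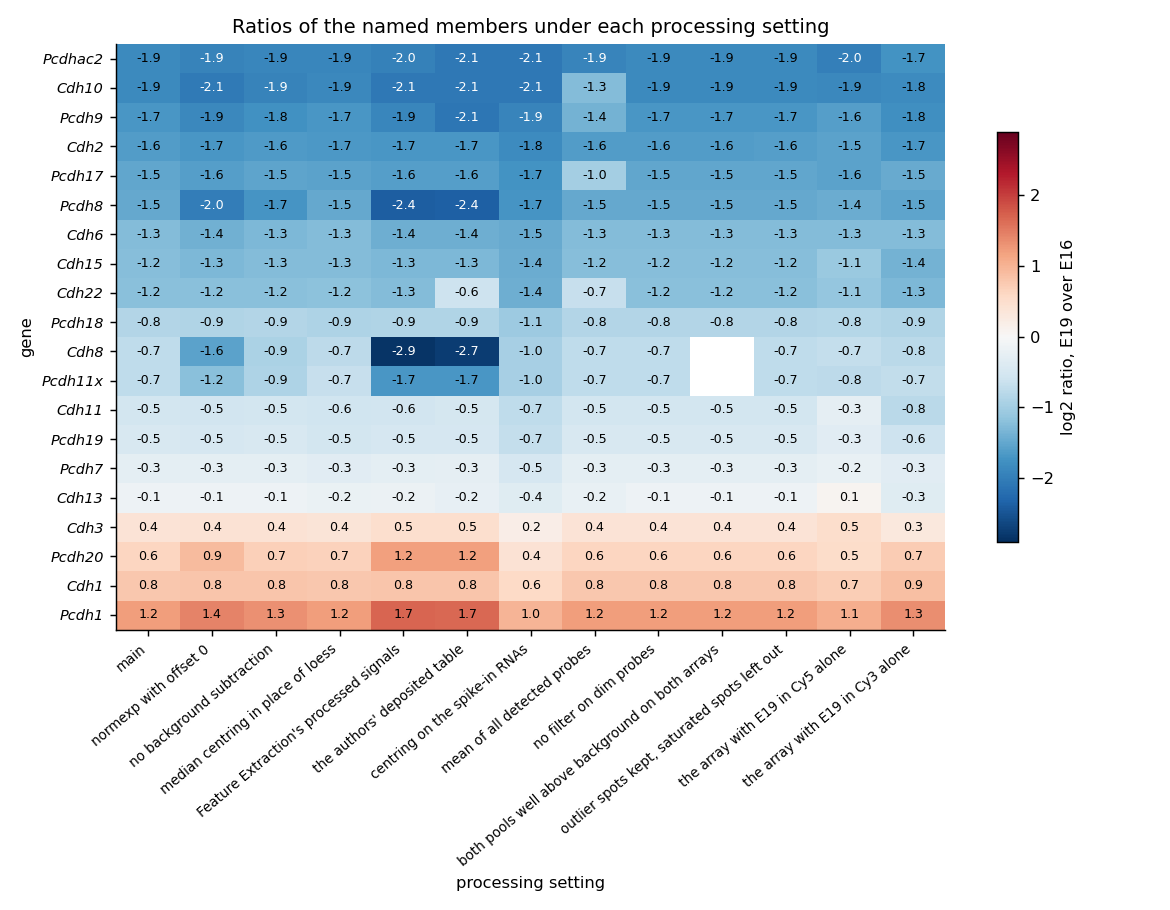
Log2 ratio of E19 over E16 of 20 genes (rows) under each processing setting (columns), as colour and number, with white where a gene was removed. Genes from Pcdhac2 to Cdh22 stay negative throughout, Cdh1, Cdh3, Pcdh20 and Pcdh1 stay positive, and the largest moves are those of Cdh8, Pcdh11x and Pcdh8 under the processed signals and in the authors' table.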

How the data were processed

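Skin RNA of 2 pools was measured on 2 Agilent rat arrays of 45018 spots. Per the labels, RNA was extracted with NucleoSpin RNA II and labelled with the Agilent Low RNA Input Linear Amp Kit. Per the file headers, spot intensity was read with Feature Extraction 9.5.1.1, and mean intensities and local median backgrounds are uncorrected. That program also wrote processed intensities and a log10 ratio. For each sequence the authors also deposited 1 log10 ratio and 1 p-value from both arrays, and how these were combined is not given in the sources used here. The deposited ratio was taken to be E19 over E16 from its correlation across genes with the turned ratios of the arrays (r = 0.90 and 0.89).

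Background was corrected with normexp (offset 50) and loess was run within each array, control spots at weight 0, with limma 3.58.1 in R 4.3.3. This offset shrinks ratios of dim probes. Outlier spots were left out and saturated spots kept. Ratios were turned to E19 over E16, and spots of a probe, then both arrays, were averaged. Levels came from Aquantile normalisation after loess. A fold given as at least N-fold sets the bright pool's mean level against the dim pool's, each array of the latter taken at the probe's own level or the lowest level of a well-measured probe, whichever was higher. The share of spots well above background was 71.5% to 74.3%, and 7 and 15 spots were saturated. With 2 arrays of the same pools, the number of arrays limits the precision. Both lay on the same slide and no batch could be tested. Across all detected genes, 613 passed the 2-fold limit towards E19, 554 towards E16 and 3 towards the same dye, and the arrays' ratios correlated with r = 0.90 across genes, which are not independent. Names were updated by accession or symbol through RefSeq (GRCr8), and 17606 of 41012 probes stayed without a name. All detected genes were counted by updated name, but the 51 genes by array name. Pcdh3 and Pcdhb13 among them share the updated name Pcdhb12, and Pcdha2, Pcdha4 and Pcdhac2 share Pcdha4. Of 11 genes with several detected probes, 1 had all and 4 had some probes past the limit, and 0 had them in opposite directions.

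The genes and lists were chosen with earlier results of these data known. Named were all genes past the limit, genes measured in 1 pool, detected type I cadherins and delta protocadherins, Cdh11, Cdh13, the extremes of each subfamily, and, of each partner list, genes past the limit and 4 set genes. Cdh7, Pcdh12, Pcdh21, Pcdha4, Zeb1, markers and genes outside the name rule were named after their values were seen. No set test or p-value was computed. The steps were tested on simulated data. Later steps used Python 3.11.15, pandas 2.3.3 and matplotlib 3.10.9.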

Additional observations from a re-analysis of the deposited data

How the results depend on the processing

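Each ratio past the limit kept its direction under every setting. Of the values of single genes under the alternatives, 176 moved by less than the SD of the arrays and 62 by more. The value of a single array always lies within that SD of the mean. The settings that only filter dim probes change no gene's ratio. Neither kind of setting could therefore count as a larger move, and the 176 includes them. No paired analysis was possible because each dye orientation is 1 array and the stages share 1 pair of pools. The counts of genes past the limit (1 towards E19, 9 towards E16) were 2 towards E19 with the processed signals and in the authors' deposited table, 0 with spike-in centring, 3 and 14 at a 1.5-fold limit and 0 and 3 at a 3-fold limit. Over the single arrays they were 1 to 2 and 9 to 9. Median centring in place of loess left 6 towards E16, without Cdh6, Cdh15 and Cdh22. Leaving out Cdh22, chosen after seeing the data, gave 1 and 8.

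Medians are given in the order all genes, type I, type II, other cadherins, delta, clustered, plaque, nectins, giant relatives, repressors and shedding, with those that moved by less than the SD left out. Spike-in centring gave -0.54, -0.63, -1.04, -0.21, -0.95, -0.54, -0.39, -0.21, -0.94, -0.29 and 0.12, a shift of every ratio. Normexp with offset 0 gave -0.43 for all, -1.21 for type II, -0.88 for delta, -0.40 for clustered and -0.93 for giant relatives. No background subtraction gave -0.97 for type II, -0.86 for delta and -0.91 for giant relatives. The processed signals gave -0.45 for all, -1.30 for type II, 0.11 for other cadherins, -0.88 for delta, -0.38 for clustered and -0.93 for giant relatives. The authors' deposited table gave -0.43 for all, -1.29 for type II, 0.11 for other cadherins, -0.88 for delta, -0.37 for clustered, -0.065 for plaque and -0.64 for giant relatives. Median centring gave -0.67 for delta, -0.27 for clustered, -0.037 for nectins, -0.68 for giant relatives and 0.29 for shedding. Requiring both pools above background gave -1.01 for type II, -0.66 for delta, -0.11 for plaque and -0.51 for giant relatives, with fewer genes. No filter on dim probes gave -0.26 for all and -0.17 for clustered, with more genes. The mean of all detected probes gave -0.085 for plaque and -0.67 for giant relatives. The cause of the other shifts was not tested.

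The single arrays gave medians from -0.36 to -0.27 for all, -0.54 to -0.29 for type I, -0.92 to -0.72 for type II, -0.024 to 0.10 for other cadherins, -0.75 to -0.72 for delta, -0.26 to 0.34 for the other non-clustered and -0.32 to -0.27 for clustered protocadherins. For the partners they were -0.26 to -0.17 for plaque, -0.047 to 0.0066 for nectins, -0.70 to -0.68 for giant relatives, -0.23 to -0.0051 for repressors and 0.24 to 0.29 for shedding. Probes near background, such as those of Cdh8 and Pcdh11x, have ratios that the offset sets in part.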

Other observations

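The array holds further rows that its descriptions call cadherins or protocadherins but whose names fall outside the name rule. Of 20 such names 11 were detected, none passed the 2-fold limit on both arrays in either direction, and their median log2 ratio of E19 over E16 was -0.25. The row nearest the limit was RGD1565811, which RefSeq now names Pcdh10, a delta protocadherin of brain and muscle. It read -0.86 with E19 in Cy5 and -1.16 with the dyes exchanged, and so was lower in E19 on both arrays like most named delta protocadherins. Cdh12, another type II cadherin, was not detected. A predicted transcript similar to cadherin 4, LOC311710, read 0.53 ± 0.15. The beta cluster rows among them, described as similar to protocadherin beta 8, beta 9, beta 14 and beta 16, read -0.25, -0.27, -0.58 and -0.49, all below 0 on both arrays as were most named beta genes. Mucdhl, now Cdhr5, was the highest at 0.84 ± 0.00.

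The E-cadherin repressor with the largest ratio was Zeb1, at -0.98, which is higher signal in E16 and short of the limit.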
